A study of Mus musculus with 16 samples.

Results

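The data are those of 4 tissue inhibitors of metalloproteinases (Timp1 to Timp4), 4 matrix metalloproteinases (Mmp2, Mmp3, Mmp9 and Mmp14) and the related protease Adamts1, in cardiomyocytes of mice that lack or keep the G protein-coupled estrogen receptor GPER. The probe sets whose platform gene symbol is one of these 9 names were taken. They were 17 of the 45141 probe sets on the array and covered 8 of the 17097 named genes. Timp4 was named by no probe set in the annotation used here and is not analysed. RNA of ventricular cardiomyocytes was hybridised to 16 Affymetrix GeneAtlas MG-430 PM arrays, 1 per mouse. There were 4 mice in each of 4 groups, GPER KO (labelled knockout) and intact (labelled wild type) females, and GPER KO and intact males. The labels give an age of 15 weeks for every mouse, and the study's text a higher one. The knockout is described as specific to cardiomyocytes, and the promoter that drives the deletion is not given in the sources used here.

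Matrix metalloproteinases are zinc enzymes that cut collagens, proteoglycans and other proteins outside the cell, and most are made as inactive precursors. TIMPs bind the active site of these enzymes and block it, so that the balance of both sets the rate of matrix turnover in the heart. In cardiac tissue the enzymes come largely from fibroblasts, endothelial cells and leukocytes, and Timp1 is known as a gene that responds to cytokines and to injury.

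In all groups the hearts were digested with collagenase, and the cells were strained and spun without sorting. The 11 measured cardiomyocyte markers lay at percentile 99.1 of all probe sets or higher. Markers of other cells were present too, with a median percentile of 85.5 for 16 endothelial, 68.9 for 20 macrophage and 67.9 for 14 fibroblast markers. In such bulk RNA, fewer cells of a type and less RNA per cell cannot be told apart. Gper1, the deleted gene, had a low signal with a KO minus intact difference of -0.08 (log2, standard error 0.08) in females and 0.01 (standard error 0.08) in males, and its probe set did not separate the genotypes. The sources used here do not say if the probes match the removed sequence, so this signal is no check of the deletion. Array medians lay between 3.47 and 3.51.

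All values are log2 signals as the authors normalised them by RMA. The value of GPER KO less that of intact mice is called the difference, other directions are named, and a difference of 1 is a doubling of the signal. A gene is called at an adjusted p under 0.05 (limma, Benjamini-Hochberg over all 17097 genes, with the probe set of the highest mean standing for a gene). Levels of different probe sets cannot be compared as amounts of RNA. A percentile of the signal is given only to show which probe sets were dim, where a small difference may be compressed.

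Timp1 was the member with the clearest change. It lies on the X chromosome (chrX:20870166-20874737, GRCm38.p6), within the span of the synapsin gene Syn1 (chrX:20860511-20920918), which runs on the opposite strand. The Timp1 sequence is printed because it is the called member, and that of Mmp3, an enzyme that activates the precursors of other metalloproteinases, because its window was the one with an AP-1 consensus among the 7 member genes found in RefSeq's promoter table (GRCm38.p6). AP-1 and the ETS family factor PEA3 are known as regulators of this gene family. Each line holds the 250 bases before the annotated start, on the gene's strand, with AP-1 (TGANTCA), PEA3 (AGGAAG) and TATA box (TATAAA) matches in capitals.
Timp1, plus strand, chrX:20869916-20870165: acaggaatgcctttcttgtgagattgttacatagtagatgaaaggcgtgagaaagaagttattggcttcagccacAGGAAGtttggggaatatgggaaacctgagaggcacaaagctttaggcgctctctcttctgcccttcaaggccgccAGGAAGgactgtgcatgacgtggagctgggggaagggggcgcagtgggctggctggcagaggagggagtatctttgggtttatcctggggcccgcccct
Mmp3, plus strand, chr9:7445572-7445821: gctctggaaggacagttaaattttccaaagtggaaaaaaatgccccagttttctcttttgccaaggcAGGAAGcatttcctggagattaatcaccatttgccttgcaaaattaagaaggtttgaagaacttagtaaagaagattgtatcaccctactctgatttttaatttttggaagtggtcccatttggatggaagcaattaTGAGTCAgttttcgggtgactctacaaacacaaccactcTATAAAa
The Timp1 window held 2 PEA3 matches, at positions -175 to -170 and -99 to -94 from the start, and no match to TGANTCA, to the AP-1 variant TGAGTAA, to the STAT motif TTCNNNGAA, to the ETS motif CCGGAA or to the TATA box. The Mmp3 window held a PEA3 match at -183 to -178, an AP-1 match at -46 to -40 and a TATA match at -7 to -2. Both strands were searched, and matches of different motifs did not overlap in these windows. Of 32851 promoter windows of this length, 29.5% held AGGAAG, 6.75% TGANTCA, 2.25% TGAGTAA, 7.02% TTCNNNGAA, 12% CCGGAA and 12.4% TATAAA. These are matches of letters in short windows and say nothing about binding.

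In male intact mice Timp1 had log2 signals of 4.02 (animal 430), 3.66 (433), 3.84 (452) and 4.16 (453). In male GPER KO mice the signals were 5.15 (431), 5.62 (432), 5.89 (444) and 5.03 (451). All 4 KO arrays lay above all 4 intact arrays, and the lowest KO value was 5.03 against a highest intact value of 4.16. The means were 3.92 ± 0.22 (SD, n = 4) in intact and 5.42 ± 0.40 (SD, n = 4) in KO mice. Timp1 rose by 1.50 (standard error 0.20, adjusted p = 0.00165 from limma), a 2.83-fold change with a 95% interval of 2.10 to 3.82. Only 2 of the 17097 genes had a larger positive difference in males, and Timp1 ranked 14 by p. It was the 1 called gene among the 8 measured members, where 0.62% of all genes were called in males. An unadjusted p under 0.05 was reached in males by 3 members, Timp1, Timp2 and Mmp9, and by 10.1% of all genes, the share against which such counts in the gene lists are to be read for that sex.

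In female intact mice Timp1 had signals of 3.93 (animal 418), 4.0 (421), 4.15 (422) and 4.12 (425). In female GPER KO mice they were 4.58 (417), 4.43 (419), 5.46 (426) and 4.82 (427). The groups did not overlap here either, and animal 426 had the highest value. Intact females averaged 4.05 ± 0.10 (SD, n = 4) and KO females 4.82 ± 0.45 (SD, n = 4). The difference was 0.77 (standard error 0.20), a 1.71-fold higher signal with a 95% interval of 1.27 to 2.30, and did not pass the test over all genes (limma, adjusted p = 0.156, unadjusted p = 0.00156). None of the 8 members was called in females, where 0.281% of all genes were called and 12.6% had an unadjusted p under 0.05, against 2 members, Timp1 and Mmp3. Within each sex an exact permutation test of the Timp1 means gave a two-sided p = 0.0286, the smallest that 4 against 4 arrays allow. Over all genes, 0.38% had KO arrays entirely above intact arrays in both sexes, and Timp1 was the 1 such member.

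Averaged over the sexes, each with equal weight, Timp1 was higher in GPER KO by 1.14 (standard error 0.14, limma, adjusted p = 0.000456), a 2.20-fold change. It was again the 1 member called, with 1.36% of all genes called in that comparison. The male difference exceeded the female one by 0.73 (standard error 0.29, 95% interval 0.13 to 1.34). The test of this difference between the sexes did not pass over all genes (limma, adjusted p = 0.426, unadjusted p = 0.0211). Of all genes 0.0% passed that test and 1875 of 17097 had an unadjusted p under 0.05. Among the members 3 had an unadjusted p under 0.05, Timp1, Mmp3 and Mmp9, and 0 were called. The intact mice of both sexes had similar Timp1 ranges, with a male minus female difference of -0.13 (standard error 0.20, 95% interval -0.56 to 0.30).

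**Figure D1:**
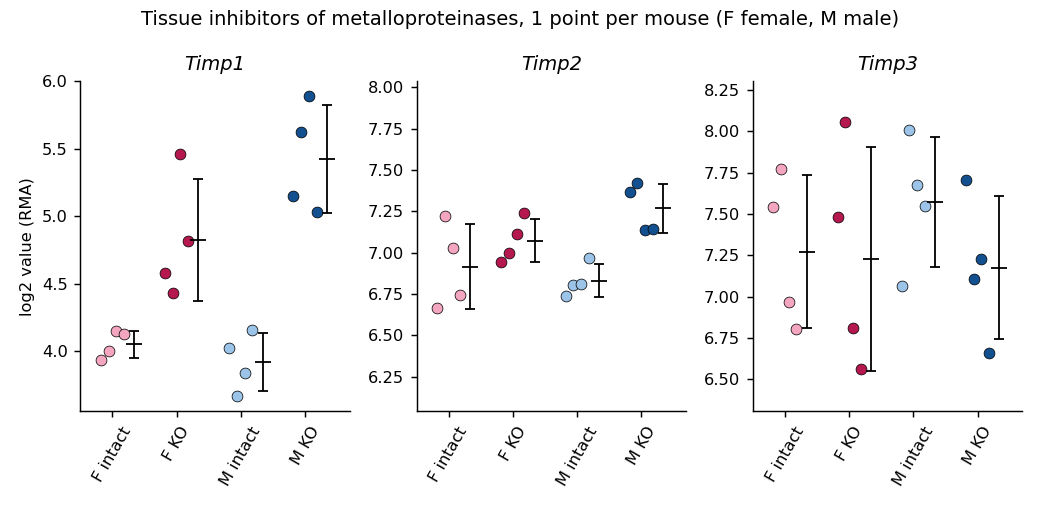
Log2 signal (vertical axis) of Timp1, Timp2 and Timp3 by group (horizontal axis), for the probe set with the highest mean. Points are mice, and the bars beside them are the mean ± 1 SD (n = 4). Timp1 in GPER KO lies above intact in both sexes, Timp2 in males alone, and the groups of Timp3 overlap.

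Timp2, which inhibits most metalloproteinases and, with Mmp14, takes part in the activation of Mmp2 at the cell surface, was measured by 5 probe sets. On the brightest, 1460287_PM_at, male intact signals were 6.74 (430), 6.80 (433), 6.81 (452) and 6.97 (453). Male GPER KO signals were 7.37 (431), 7.42 (432), 7.14 (444) and 7.15 (451). The male groups did not overlap. The difference was 0.44 (standard error 0.11, 95% interval 0.20 to 0.67), a 1.35-fold higher signal, and did not pass over all genes (limma, adjusted p = 0.102, unadjusted p = 0.00111). In females the KO signals ran from 6.94 to 7.24 and the intact ones from 6.67 to 7.22, with a difference of 0.16 (standard error 0.11, adjusted p = 0.590) that ranged from 0.075 without female intact 418 to 0.26 without 421. Over both sexes the difference was 0.30 (standard error 0.08, adjusted p = 0.0795). Without female intact 421, which had the highest intact value, Timp2 was called over both sexes with 0.35 (limma, adjusted p = 0.0222). Without female intact 418 the value over both sexes was 0.26. Over the arrays left out in turn, the limma adjusted p ranged from 0.0222 to 0.164 over both sexes. In males it ranged from 0.0514 to 0.255. With array weights Timp2 was called in males (0.46, adjusted p = 0.0394) and over both sexes (0.32, adjusted p = 0.0360).

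The other Timp2 probe sets gave male differences of 0.35 (1454677_PM_at), 0.17 (1450040_PM_at), 0.37 (1433662_PM_s_at) and 0.34 (1420924_PM_at), so that the 5 probe sets had the same sign. In females 4 of the 5 were above 0, and 1420924_PM_at had -0.03. In a fit over all 45141 probe sets, 0 of the 5 were called in either sex, where 0.122% of all probe sets were called in females and 0.29% in males. The male arrays did not overlap on 3 of the 5, and on 5.29% of all probe sets. Across the 16 arrays the 5 probe sets of Timp2 correlated with a median r of 0.73 and a range of 0.32 to 0.91. The dimmest of them, 1420924_PM_at, had a mean at percentile 58.7 and the brightest at 90.5.

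Timp3 is held in the matrix and also inhibits proteases of the ADAM and ADAMTS families. It varied more between mice of 1 group than other members did, with a pooled SD within groups of 0.50, larger than that of 99.5% of genes. On its brightest probe set female intact signals were 7.54 (418), 7.77 (421), 6.97 (422) and 6.80 (425), and female KO signals 7.48 (417), 8.06 (419), 6.81 (426) and 6.56 (427). Male intact signals were 7.06 (430), 8.01 (433), 7.68 (452) and 7.55 (453), and male KO signals 7.71 (431), 7.11 (432), 7.23 (444) and 6.66 (451). The groups overlapped in both sexes. The differences were -0.04 in females (95% interval -0.70 to 0.61) and -0.40 in males (95% interval -1.06 to 0.26), with a limma adjusted p of 0.966 and 0.742. The male value was -0.23 without male KO 451 and -0.58 without male KO 431. The 4 Timp3 probe sets followed each other closely over the arrays, with r between 0.91 and 0.98, and all 4 had a male difference below 0, from -0.43 to -0.23.

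Mmp2, the gelatinase that is made as a precursor and activated at the cell surface, had overlapping groups. Its female intact signals were 4.39 (418), 5.38 (421), 5.43 (422) and 4.72 (425), and its female KO signals were 4.95 (417), 5.33 (419), 5.34 (426) and 5.06 (427). The female intact mice were thus split into a low pair (418 and 425) and a high pair (421 and 422). The male intact signals ran from 5.06 to 5.52 and the male KO signals from 5.11 to 5.56. The differences were 0.19 in females (95% interval -0.22 to 0.60, adjusted p = 0.739) and 0.11 in males (95% interval -0.30 to 0.52, adjusted p = 0.910), both from limma. The male value was 0.039 without male KO 444 and 0.20 without male intact 453. Without female intact 418 the female value was -0.01 (adjusted p = 0.991), and without 421 and 422 together it was 0.61 (adjusted p = 0.334), a choice made with the data in view.

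Mmp14, the membrane-bound enzyme that cuts collagen and activates Mmp2, gave differences of 0.04 in females (95% interval -0.25 to 0.32) and 0.09 in males (95% interval -0.19 to 0.38) on its brighter probe set. Male KO animal 444 had 4.50 there, and the other 3 male KO arrays lay between 3.97 and 3.98. Without animal 444 the male value was -0.04 (limma, adjusted p = 0.938). The second probe set was dim, at percentile 30.4, with differences of -0.05 in females and -0.04 in males. The pair of probe sets correlated with r = 0.17 over the 16 arrays.

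Mmp3 was measured by 1 dim probe set, with a mean at percentile 31.9. Its female intact signals were 3.02 (418), 3.0 (421), 3.05 (422) and 3.04 (425), and its female KO signals were 2.83 (417), 2.84 (419), 2.92 (426) and 2.83 (427). The female groups did not overlap, with KO below intact. The difference was -0.17 (standard error 0.05, 95% interval -0.28 to -0.07) and did not pass over all genes (limma, adjusted p = 0.185, unadjusted p = 0.00289). In males the difference was 0.00 (standard error 0.05, adjusted p = 0.988). The pooled SD within groups of Mmp3 was smaller than that of all but 1.82% of genes.

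Mmp9, a gelatinase stored in neutrophils and made by macrophages, had 2 dim probe sets, with means at percentiles 44.2 and 25.7. On the brighter one the male intact signals were 3.08 (430), 3.19 (433), 3.16 (452) and 3.18 (453), and the male KO signals 3.29 (431), 3.29 (432), 3.31 (444) and 3.29 (451). The male groups did not overlap, with a difference of 0.14 (standard error 0.06, 95% interval 0.01 to 0.27) that did not pass (limma, adjusted p = 0.437). Female KO signals ran from 3.29 to 3.40 and female intact ones from 3.27 to 3.59, with a difference of -0.06 (adjusted p = 0.730). On the dimmer probe set the male difference was 0.01 and the groups overlapped.

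Among intact mice Mmp9 was lower in males than in females on the brighter probe set, by -0.25 on the log2 scale (standard error 0.06, limma, adjusted p = 0.0668, unadjusted p = 0.000876), with no overlap. It was called without female intact 418 (-0.30, adjusted p = 0.0325) and without female intact 425 (-0.28, adjusted p = 0.0427). The value was smaller, -0.19, without female intact 422. Over the arrays left out in turn the limma adjusted p ranged from 0.0325 to 0.175. Without 421 and 422 together, a choice made with the data in view, the value was -0.14 (limma, adjusted p = 0.458). On the dimmer probe set the value was -0.05. None of the 8 members was called between intact males and females, where 0.579% of all genes were called, and Mmp9 was the 1 member whose arrays did not overlap, where 8.44% of all genes did not.

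Adamts1, a secreted protease that cuts the proteoglycans versican and aggrecan, overlapped between genotypes in both sexes. Male intact signals were 5.45 (430), 6.24 (433), 5.77 (452) and 5.79 (453), and male KO signals 5.65 (431), 5.56 (432), 5.38 (444) and 5.45 (451). Animal 433 was the highest of all 16. The male difference was -0.30 (95% interval -0.68 to 0.08, limma, adjusted p = 0.633) and was -0.16 without animal 433 (adjusted p = 0.901, and from 0.514 to 0.901 over the arrays left out in turn). In females the intact signals lay between 5.34 and 5.61 and the KO signals between 4.99 and 5.93, with a difference of -0.01 (95% interval -0.38 to 0.37).

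**Figure D2:**
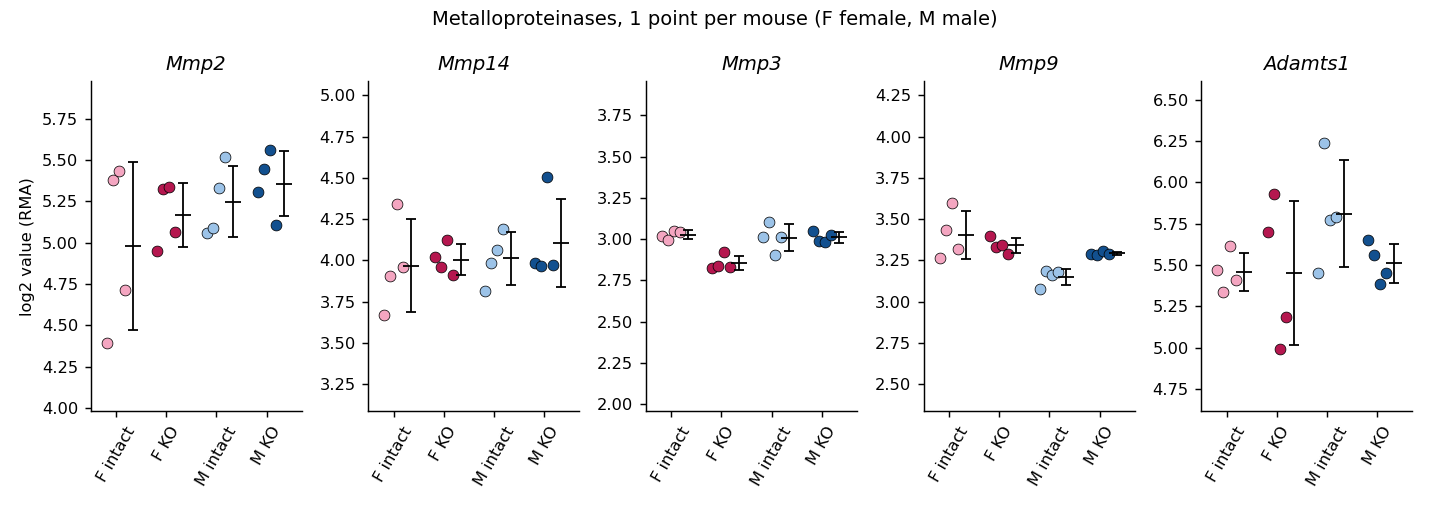
Log2 signal (vertical axis) of 5 metalloproteinases by group (horizontal axis), for the probe set with the highest mean, each panel spanning at least 2 log2 units. Points are mice, and the bars are the mean ± 1 SD (n = 4). No genotype difference passed the test in any panel.

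Counted over the 8 members, 4 were above and 4 below intact in females, with a median difference of 0.01, and 6 were above and 2 below in males, with a median of 0.10. The medians over all genes were -0.02 in females and 0.01 in males. In females the arrays of Timp1 and Mmp3 did not overlap, where 5.69% of all genes did not. In males those of Timp1, Timp2 and Mmp9 did not overlap, where 6.21% of all genes did not. The 3 genes separated in males all had KO above intact.

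**Figure D3:**
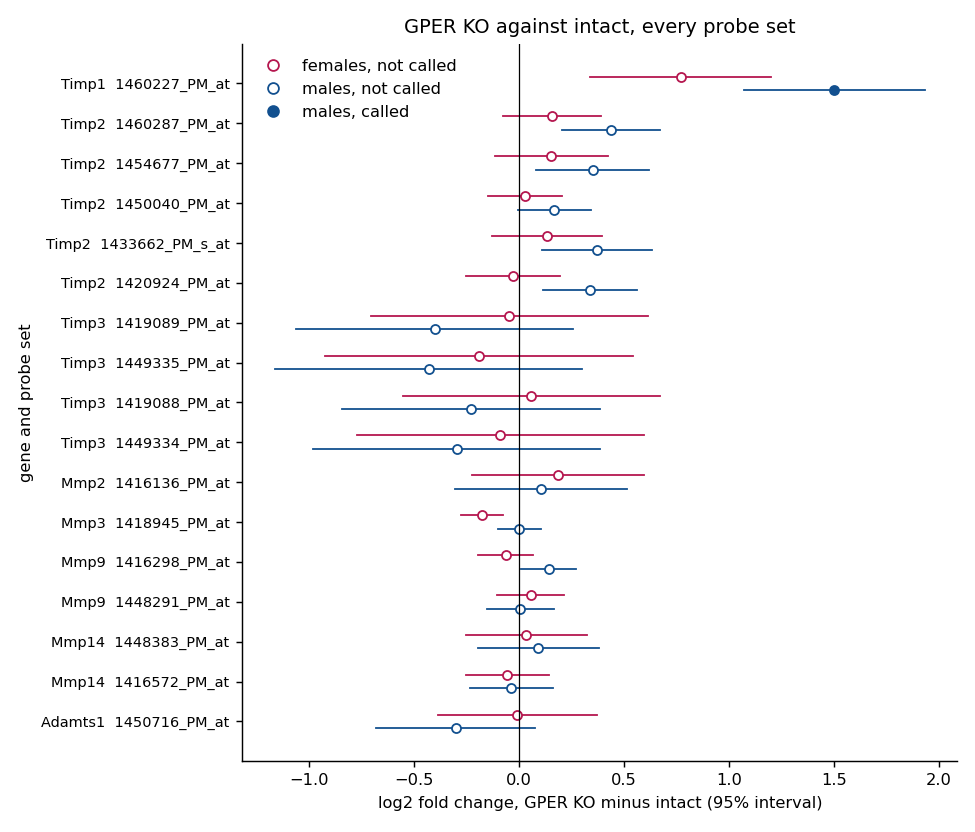
Log2 fold change (GPER KO minus intact, horizontal axis) of the 17 probe sets (vertical axis) in females and males, from the fit over all probe sets. Points are estimates, filled where called, and lines are 95% intervals. The male value of Timp1 is the 1 filled point, at 1.50, and the 5 Timp2 probe sets lie above 0 in males.

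Markers of macrophages moved with Timp1. Their mean log2 signal over 20 genes lay between 4.22 and 4.40 on the female intact and between 4.45 and 4.71 on the female KO arrays. It lay between 4.32 and 4.77 on the male intact and between 4.64 and 5.25 on the male KO arrays. Of the 20, 17 were above intact in females with 0 called (5 with an unadjusted p under 0.05), and 20 were above intact in males with 6 called. The called ones with the largest differences in males were Ctss, a lysosomal protease (1.30), Lyz2, a lysozyme (1.03), Tyrobp, a signalling adaptor (0.83), and Fcgr3, an antibody receptor (0.75). Aif1 alone lay below the 40 percentile on every array. In deviations from the group means, Timp1 and the macrophage mean correlated with r = 0.58 and rho = 0.53 over the 16 arrays, and with r = 0.45 without the 2 arrays farthest out. Within groups Timp1 correlated more highly with the means of 2 other lists, the 11 cardiomyocyte markers (r = 0.65, rho = 0.63) and the 10 epicardial and mesothelial markers (r = 0.64, rho = 0.78). Over all 16 arrays without that centring, r was 0.84 for the macrophage, -0.19 for the cardiomyocyte and 0.15 for the epicardial mean. The cardiomyocyte mean ranged only from 12.36 to 12.44 over all arrays. The epicardial markers were dim, with a median percentile of 44.9. Msln, Krt19 and Tbx18 of that list lay below the 40 percentile on every array. Male intact 453 had the highest Timp1 value and the highest macrophage mean of its group. The part of these cells in the Timp1 difference was not tested. Timp1 is also made by cell types other than macrophages.

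Markers of fibroblasts, which are known to make Mmp2, followed Mmp2. The mean of 14 fibroblast markers lay between 4.91 and 5.36 in female intact, 5.17 and 5.40 in female KO, 5.01 and 5.49 in male intact and 5.04 and 5.61 in male KO mice, so that the groups overlapped, and 0 of the 14 were called in either sex (1 in females and 2 in males had an unadjusted p under 0.05). The largest male difference of the list was that of the collagen gene Col3a1, 1.18 (standard error 0.37, limma, adjusted p = 0.213). In females Col3a1 had 0.73 (standard error 0.37, adjusted p = 0.429), and its groups overlapped in both sexes. Col1a1 had 0.32 in males (standard error 0.11, adjusted p = 0.256). Col1a2, Fap and Cthrc1 lay below the 40 percentile on every array. Mmp2 is not on that list, and its deviations from the group means correlated with those of the list mean with r = 0.86 and rho = 0.91 (16 arrays), and with r = 0.89 without the 2 arrays farthest out. The female intact mice 418 and 425, low in Mmp2, were those with the lowest fibroblast means. Timp2 followed the same list with r = 0.68 and Mmp14 with r = 0.60 within groups. Mmp2, Timp2 and Mmp14 did not follow fibroblast markers alone. For Mmp2, r within groups was 0.64 with the endothelial and 0.60 with the smooth muscle and pericyte mean. It was 0.59 with the macrophage and 0.55 with the epicardial mean. Within groups Timp2 had r = 0.57 with the epicardial and 0.54 with the macrophage mean. Mmp14 had r = 0.57 with the endothelial, 0.55 with the smooth muscle and pericyte and 0.54 with the macrophage mean.

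Timp3 and Adamts1 varied together, with r = 0.70 within groups and r = 0.56 without the 2 arrays farthest out. Within groups Timp3 correlated with the mean of 16 endothelial markers with r = 0.66 and with 8 smooth muscle and pericyte markers with r = 0.62. Adamts1 correlated with the endothelial mean with r = 0.53. Without the 2 arrays farthest out these were 0.56, 0.49 and 0.42. The cardiomyocyte mean ran opposite within groups, with r = -0.57 for Timp3 and -0.63 for Adamts1. The epicardial mean had r = -0.55 with Adamts1. The endothelial mean lay between 6.20 and 6.66 in female intact, 5.93 and 6.43 in female KO, 6.16 and 6.91 in male intact and 5.99 and 6.49 in male KO mice. All 16 endothelial genes were below intact in both sexes, with 0 called (1 in females and 4 in males had an unadjusted p under 0.05). None of the 16 lay below the 40 percentile on every array. Timp1 ran opposite to Adamts1 (r = -0.66) and to Timp3 (r = -0.45) within groups. All these correlations are over arrays that share 1 normalisation and are given as descriptions. The part of cell mixture in them was not tested.

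**Figure D4:**
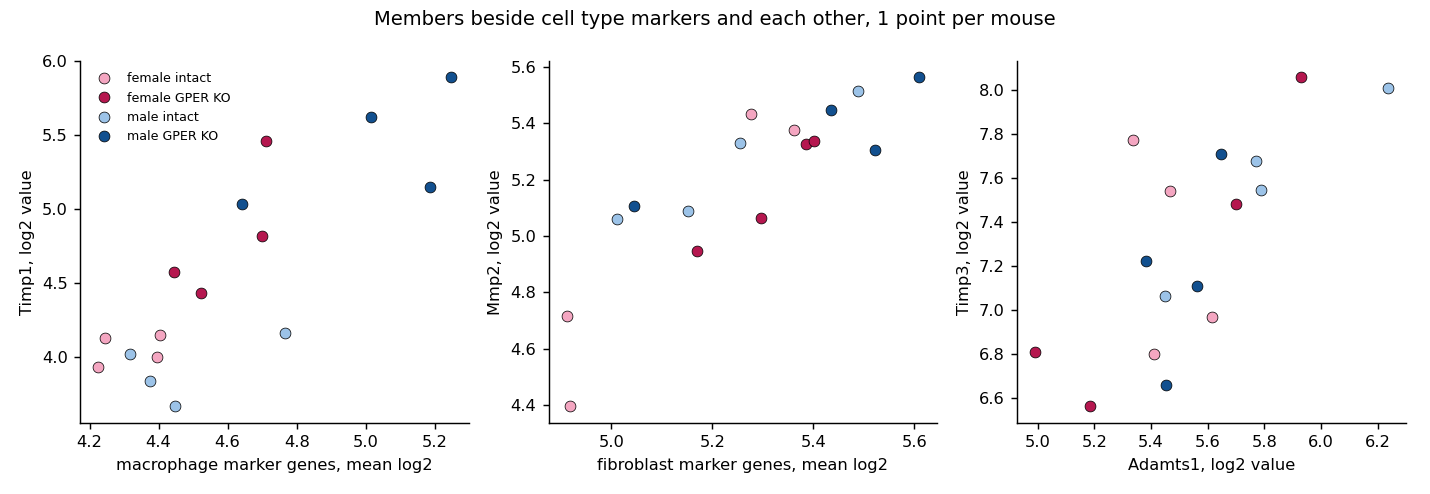
Each point is a mouse. The left panel sets Timp1 (log2 signal, vertical axis) against the mean log2 signal of 20 macrophage markers, the middle panel Mmp2 against that of 14 fibroblast markers, and the right panel Timp3 against the log2 signal of Adamts1. The 8 GPER KO mice lie above the 8 intact mice for Timp1, from 4.43 against at most 4.16, while the groups are mixed for Mmp2 and Timp3.

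Of neutrophil markers, which bear on Mmp9, 10 were measured and S100a8 and Mmp8 lay below the 40 percentile on every array. Their mean lay between 3.48 and 3.60 in male intact and between 3.59 and 3.62 in male KO mice. In males 4 were above and 6 below intact, and the 1 called was Lcn2, a lipocalin that binds Mmp9 and is made by other cells too (1.08, standard error 0.18, limma, adjusted p = 0.00954). Lcn2 in females had 0.56 (standard error 0.18, limma, adjusted p = 0.231), with KO arrays above all intact arrays. The Lcn2 intact means, 2.94 in females and 3.09 in males, lay below the array medians of 3.47 to 3.51. Lcn2 is part of the list mean, and the median difference of the 10 genes in males was -0.05. In deviations from the group means, Mmp9 had r = 0.53 and rho = 0.05 with the neutrophil mean. Without the 2 arrays farthest out r was -0.32. None of the measured cardiomyocyte (11), smooth muscle and pericyte (8), lymphocyte (10) or epicardial (10) markers was called in either sex (at most 4 of a list had an unadjusted p under 0.05). The list with 4 was the epicardial one in females, all below intact. Over both sexes 1 marker of these cell types was called, Des, which encodes desmin (0.25, limma, adjusted p = 0.0253). Des was on the smooth muscle and pericyte list but is not made by those cells alone.

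The genes whose signal followed that of Timp1 most closely over the 16 arrays were Lgals3 (r = 0.91), which encodes galectin-3, Uck2 (r = 0.91), a uridine-cytidine kinase, Ctss (r = 0.89), Pam (r = 0.89), an enzyme that amidates peptides, and Phlda3 (r = 0.88), a target of p53. Since the KO and intact arrays differ in Timp1, these values hold the genotype difference. In deviations from the group means r was 0.59 for Lgals3, 0.51 for Uck2, 0.64 for Ctss, 0.53 for Pam and 0.23 for Phlda3. All 5 were called in males, with differences from 0.49 (Pam) to 1.66 (Lgals3), and Phlda3 alone of the 5 was called in females (0.84, standard error 0.11, limma, adjusted p = 0.00241).

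Syn1, whose span holds Timp1, had differences of -0.01 in females (standard error 0.08, limma, adjusted p = 0.974) and -0.14 in males (standard error 0.08, adjusted p = 0.582). Syn3, whose span holds Timp3, had -0.01 (standard error 0.06) and 0.11 (standard error 0.06, adjusted p = 0.611). Syn2, whose span holds Timp4, had -0.04 and 0.06, each with a standard error of 0.07. The groups of all 3 host genes overlapped in both sexes.

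The wider family of metalloproteinases had 14 further measured genes of 19 listed. In males 9 were above and 5 below intact, with a median difference of 0.02, and 2 were called. Mmp12, the macrophage elastase, had means of 2.98 in male intact and 3.39 in male KO mice, a difference of 0.41 (standard error 0.09, limma, adjusted p = 0.0447). Its probe set was dim, with every group mean below the array medians of 3.47 to 3.51. Mmp23, a membrane-anchored member, had means of 3.63 and 4.02, a difference of 0.39 (standard error 0.08, adjusted p = 0.0287). In both genes the male KO arrays lay above all male intact arrays. In females 7 were above and 7 below with 0 called (1 had an unadjusted p under 0.05), and Mmp12 had 0.23 (adjusted p = 0.295) and Mmp13, a collagenase, -0.11 (adjusted p = 0.427). Mmp12 (0.32, adjusted p = 0.0140) and Mmp23 (0.26, adjusted p = 0.0244) were the 2 called over both sexes.

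Of 13 further ADAMTS proteases measured, 8 were above intact in females and 7 in males, and 0 were called in either sex (2 in each had an unadjusted p under 0.05). Adamts7 had -0.31 in females (limma, adjusted p = 0.215) and Adamts5, an aggrecanase, 0.26 (adjusted p = 0.396). In males Adamts9 had -0.21 (adjusted p = 0.376) and Adamts15 0.17 (adjusted p = 0.446). The ADAM family includes sheddases, which release proteins from the cell surface. Of 11 ADAM genes, 5 were above intact in females and 3 in males with 0 called (1 in each sex had an unadjusted p under 0.05). Adam17, the enzyme that releases TNF, had 0.31 in females (standard error 0.10, adjusted p = 0.220), with KO arrays above all intact arrays, and -0.16 in males (adjusted p = 0.632). Adam10, a related sheddase, had 0.46 in females (standard error 0.23, adjusted p = 0.429) and -0.40 in males (adjusted p = 0.630). Among intact mice Adam17 was higher in males than in females by 0.49 (standard error 0.10, adjusted p = 0.0421).

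Of 20 activators and other regulators of metalloproteinases, 7 were above intact in females and 10 in males, and Lcn2 in males was the 1 called. Furin, a convertase that activates Mmp14, had -0.22 in females (limma, adjusted p = 0.366). Of 7 surface partners of TIMPs, the 1 called in males was Cd74, the MHC class II invariant chain, with means of 5.50 in intact and 6.55 in KO mice (1.05, standard error 0.13, adjusted p = 0.00164). Cd74 in females had 0.60 (standard error 0.13, adjusted p = 0.0850). Cd74 is known chiefly for its part in antigen presentation. Kdr, a receptor of endothelial cells that Timp3 binds, had -0.37 in females (adjusted p = 0.488).

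Of 26 matrix substrates, 16 were above intact in females and 19 in males, with medians of 0.03 and 0.09, and 0 were called in either sex (2 in females and 6 in males had an unadjusted p under 0.05). Tnc, which encodes tenascin C, a matrix protein of injured tissue, had 0.23 in females (limma, adjusted p = 0.230) and 0.28 in males (adjusted p = 0.128) and was called over both sexes (0.25, standard error 0.05, adjusted p = 0.0233). The Tnc probe set was dim too, with group means from 3.02 to 3.37, below the array medians. Postn, which encodes periostin, had 0.76 in females (standard error 0.31, adjusted p = 0.333). Lama2, the laminin chain of muscle basement membrane, had -0.45 in males (standard error 0.10, adjusted p = 0.0532), with KO arrays below all intact arrays.

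Of 23 genes of pathways that are known to induce Timp1 or metalloproteinases, 9 were above intact in females and 15 in males, with 0 called in either sex (1 in females and 5 in males had an unadjusted p under 0.05). Osmr, the receptor of oncostatin M, had 0.42 in males (standard error 0.14, limma, adjusted p = 0.261), and Runx1, a transcription factor, 0.17 (standard error 0.06, adjusted p = 0.326). In females Ets2, an ETS factor, had -0.27 (adjusted p = 0.394) and Tgfb1 0.20 (adjusted p = 0.494).

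**Figure D5:**
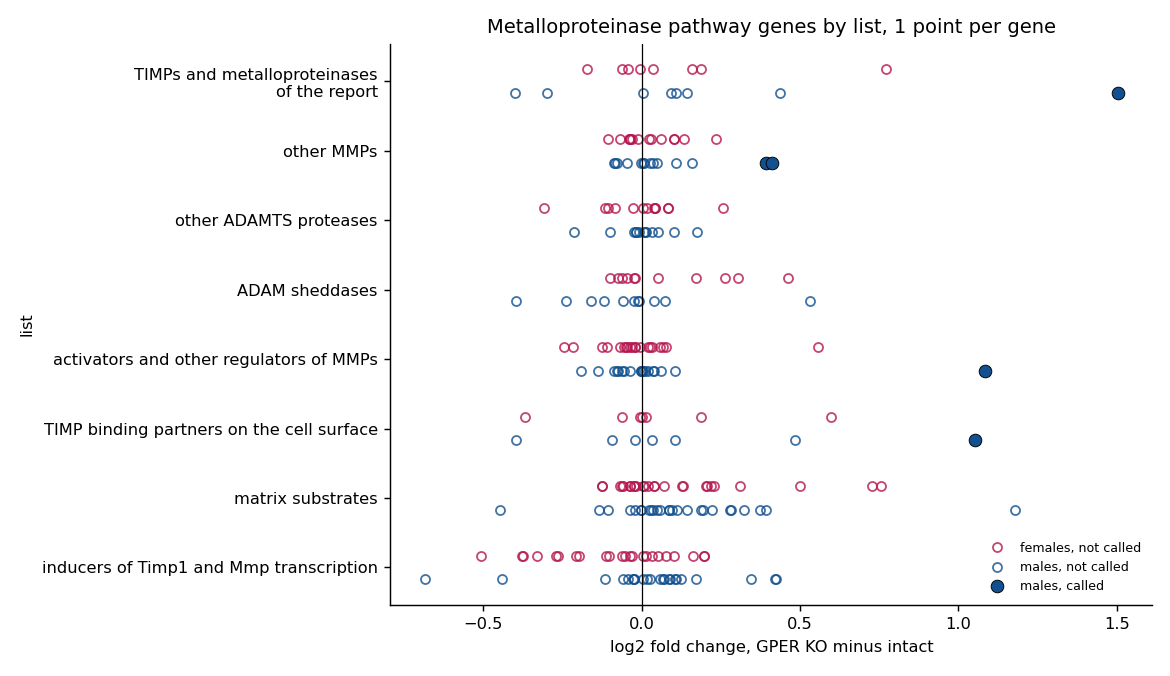
Log2 fold change (GPER KO minus intact, horizontal axis) of the measured genes of each list (vertical axis), in females and males. Each point is a gene, filled where called. The filled points are all in males, and Timp1 at 1.50 is the farthest to the right.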

How the data were processed

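The authors hybridised RNA to Affymetrix arrays, normalised the scans by RMA and deposited log2 signals per probe set. The version of the normalisation software is not given in the sources used here. Of 45141 probe sets, 28898 had 1 gene in the platform annotation, 551 several and 15692 none, and 28689 of the first were matched to GRCm38.p6 by Entrez identifier. The probe set with the highest mean stood for each of 17097 genes. Group means were fitted with limma 3.58.1 (R 4.3.3; lmFit, eBayes) over all genes, and separately over all probe sets, with Benjamini-Hochberg adjustment. The code was tested on simulated data. The number of arrays limits the precision, and nothing in the labels names a batch. All females had lower animal numbers than all males, so a factor that followed these numbers could not be told apart from sex. The members, gene lists, markers and motifs were chosen with earlier results of these data known. Named genes were all members, up to 4 called genes of each list per contrast or, where none was called, up to 2 with the smallest p, and the 5 genes most correlated with a called member. Columns of all 16 samples were used. The labels do not say whether mice were littermates.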

Additional observations from a re-analysis of the deposited data

Results flagged for a closer look

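In 4 of 68 groups of 4 arrays, 1 array stood apart from the other 3 by Dixon's criterion, where chance gives about 5% of groups. On the dimmest Timp2 probe set, 1420924_PM_at, female intact animal 422 had 3.44 against 3.83 to 3.85 for the others, and male intact animal 453 had 4.11 against 3.71 to 3.77. For Mmp3, female GPER KO animal 426 had 2.92 against 2.83 to 2.84. On the brighter Mmp14 probe set, male GPER KO animal 444 had 4.50 against 3.97 to 3.98.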

How the results depend on the processing

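No paired analysis was possible because the animal numbers are unique and join no mice across groups. Of the 8 members, 1 was called in males in every setting tried except array weights, which called 2. Over both sexes 1 was called, but 2 with array weights, without female intact 421, and without female intact 421 and 422 together, which was added with the data in view. In each case the added gene was Timp2, which reached 0.40 (limma, adjusted p = 0.00580) without both animals. Between intact sexes 0 were called, but 1 (Mmp9) without female intact 418 or 425. Without single arrays, Timp1 ranged from 1.35 to 1.63 in males and from 0.56 (without female KO 426) to 0.90 in females. The sign of some values that were not called changed. Mmp14 in females was -0.0089 with the mean of its probe sets, and its male minus female difference was -0.041 with array weights and -0.10 without 421 and 422. Without those 2, Timp3 (0.055), Mmp9 (0.049) and Adamts1 (0.012) in females and Timp2 between intact sexes (0.13) changed sign. Leaving out 1 array at a time gave in females -0.32 to 0.18 for Timp3, -0.0063 to 0.34 for Mmp2, -0.11 to 0.0012 for Mmp9, -0.064 to 0.16 for Mmp14 and -0.17 to 0.15 for Adamts1. It gave in males -0.031 to 0.036 for Mmp3 and -0.039 to 0.15 for Mmp14, and over both sexes -0.0015 to 0.13 for Mmp14. The male minus female difference ranged from -0.23 to 0.11 for Mmp2 and from -0.075 to 0.16 for Mmp14, and the intact male minus female value from -0.17 to 0.017 for Timp2, -0.052 to 0.015 for Mmp3 and -0.056 to 0.17 for Mmp14. The cause was not tested. Mmp3 was left out by the filter on low values.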
